A study of Homo sapiens with 6 samples.

Results

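The regions described here are stretches of DNA whose methylation was lower in DNMT3A-overexpressing HepG2 cells than in control cells although the control level was already low or intermediate. HepG2 is an established human hepatocellular carcinoma cell line, and its genotype is labelled WT in the control group and DNMT3A overexpression in the other. Control cells were infected with a control lentivirus and the others with a lentivirus that overexpresses DNMT3A, so infection was common to both groups. Each group had 3 libraries made by reduced representation bisulfite sequencing (RRBS), and the authors' 3 lists of differentially methylated regions compare libraries that carry the same replicate number, called pairs 1 to 3. The labels do not give the DNMT3A isoform, the promoter that drives it, the time after infection, or whether the 3 libraries of a group were separate cultures. The p-values below therefore measure only the spread between these pairs, which may be technical. A listed region was selected on its measured values: its mean methylation level, a fraction from 0 to 1, had to be under 0.60 in the control library and lower still in the overexpressing library. The rule kept 432 of 4344 listed regions, with 137 of 1483 in pair 1, 132 of 1433 in pair 2 and 163 of 1428 in pair 3. Overlapping regions of different pairs were merged only to count how often a region came back, which left 412 distinct regions. The files hold methylation only, so neither cell identity nor DNMT3A expression could be checked on markers.

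DNA methylation in mammals is placed mostly on the cytosine of CpG dinucleotides. DNMT3A adds the mark to unmethylated DNA, DNMT1 copies it after replication, and TET dioxygenases start its removal. CpG islands, the CpG-dense stretches at many gene starts, are usually free of methylation in normal cells and often gain it in tumours. Intermediate levels are typical of parts of imprinted genes, of the edges of islands and of mixtures of methylated and unmethylated molecules. RRBS cuts genomic DNA with the enzyme MspI at CCGG, so it reads mainly CpG-dense fragments, and bisulfite turns unmethylated cytosines into bases read as T.

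Many of these regions lay at CpG-dense gene starts, and 5 such starts show what the sequence looked like. The lines below give the 250 bases that precede an annotated start, 5′ to 3′ on the strand of the gene, from RefSeq on GRCh38.p14, the assembly of the deposited build hg38. Capitals mark the bases that lay inside the called region, and where 2 pairs listed the start they mark the bases inside the called regions of both pairs. The genes were picked after their values were seen, from 19 starts whose upstream window could be shown, to cover a start lower in 2 pairs (SLC12A2-DT), an imprinted gene (PLAGL1), a start with opposite directions (NKX3-2), a zinc finger gene (ZNF48) and one of the lowest control levels (SLC8A1). The windows are chr5:128083176-128083425 (minus strand), chr6:144008260-144008509 (minus), chr4:13544509-13544758 (minus), chr16:30378062-30378311 (plus) and chr2:40452091-40452340 (minus).
SLC12A2-DT: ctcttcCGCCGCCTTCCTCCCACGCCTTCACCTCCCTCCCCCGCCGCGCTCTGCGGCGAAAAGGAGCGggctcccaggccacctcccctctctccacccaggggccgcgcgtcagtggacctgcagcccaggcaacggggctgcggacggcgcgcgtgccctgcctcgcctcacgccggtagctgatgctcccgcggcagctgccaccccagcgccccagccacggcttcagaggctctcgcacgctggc
PLAGL1: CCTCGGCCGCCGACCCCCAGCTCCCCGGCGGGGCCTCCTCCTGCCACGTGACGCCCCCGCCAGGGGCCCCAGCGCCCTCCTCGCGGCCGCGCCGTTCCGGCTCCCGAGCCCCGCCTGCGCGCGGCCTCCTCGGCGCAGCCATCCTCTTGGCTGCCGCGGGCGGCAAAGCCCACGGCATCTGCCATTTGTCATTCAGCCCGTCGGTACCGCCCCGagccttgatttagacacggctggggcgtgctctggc
NKX3-2: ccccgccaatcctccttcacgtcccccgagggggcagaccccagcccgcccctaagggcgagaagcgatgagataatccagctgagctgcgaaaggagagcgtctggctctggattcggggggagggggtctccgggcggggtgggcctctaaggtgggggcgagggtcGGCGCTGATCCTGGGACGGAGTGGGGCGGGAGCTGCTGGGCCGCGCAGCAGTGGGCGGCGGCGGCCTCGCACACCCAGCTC
ZNF48: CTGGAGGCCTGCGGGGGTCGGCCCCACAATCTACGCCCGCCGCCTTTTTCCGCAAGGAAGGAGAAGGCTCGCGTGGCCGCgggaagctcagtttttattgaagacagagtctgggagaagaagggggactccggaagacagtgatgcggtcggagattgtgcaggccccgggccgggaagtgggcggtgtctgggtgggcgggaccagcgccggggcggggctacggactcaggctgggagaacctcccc
SLC8A1: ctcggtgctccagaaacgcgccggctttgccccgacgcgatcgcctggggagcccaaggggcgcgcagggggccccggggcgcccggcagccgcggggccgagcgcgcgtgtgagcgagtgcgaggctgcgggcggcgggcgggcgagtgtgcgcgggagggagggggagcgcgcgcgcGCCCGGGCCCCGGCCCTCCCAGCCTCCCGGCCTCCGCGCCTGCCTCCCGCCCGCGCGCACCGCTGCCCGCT
All 5 windows were rich in G and C, from 66.8% at ZNF48 to 83.2% at SLC8A1, and held between 21 and 44 CG dinucleotides. The called part of the PLAGL1 window held 30 of its 32 CG dinucleotides, and that of SLC8A1 held 11 of 44.

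Libraries were of similar size, with 33512387 to 39245256 total reads and 25764323 to 29924507 mapped reads. The reads behind each region are not given, so no interval can be set on a single level. The lists count the methylated positions of a region as CpG sites, and this column was checked against the reference sequence. Of 110 listed regions that lay wholly inside a window of 250 bases before to 50 after a start, 106 (96.4%) had more sites than CG dinucleotides, and the median region had 100% of the cytosines of its CG dinucleotides on both strands. In these windows a CpG dinucleotide was thus counted on both strands. Outside them the column was not checked, and the count could differ between pairs over nearly the same bases. At FLT4 it was 31 sites over 64 bp in pair 1 and 16 over 64 bp in pair 2. Densities below are therefore listed sites per length, and need not reflect the sequence alone.

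Control levels of the 432 regions ran from 0.0414 to 0.598 and overexpressing levels from 0.00887 to 0.568. The median region stood at 0.436 in control library 1 and at 0.146 in overexpressing library 1, at 0.441 and 0.168 in pair 2, and at 0.443 and 0.147 in pair 3. The median difference was -0.222, -0.215 and -0.239. These values chose the regions and are given as a description. Of all listed regions with a control level under 0.60, those lower in the overexpressing library made up 10.6% in pair 1, 10.6% in pair 2 and 12.8% in pair 3, and the others were higher.

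**Figure D1:**
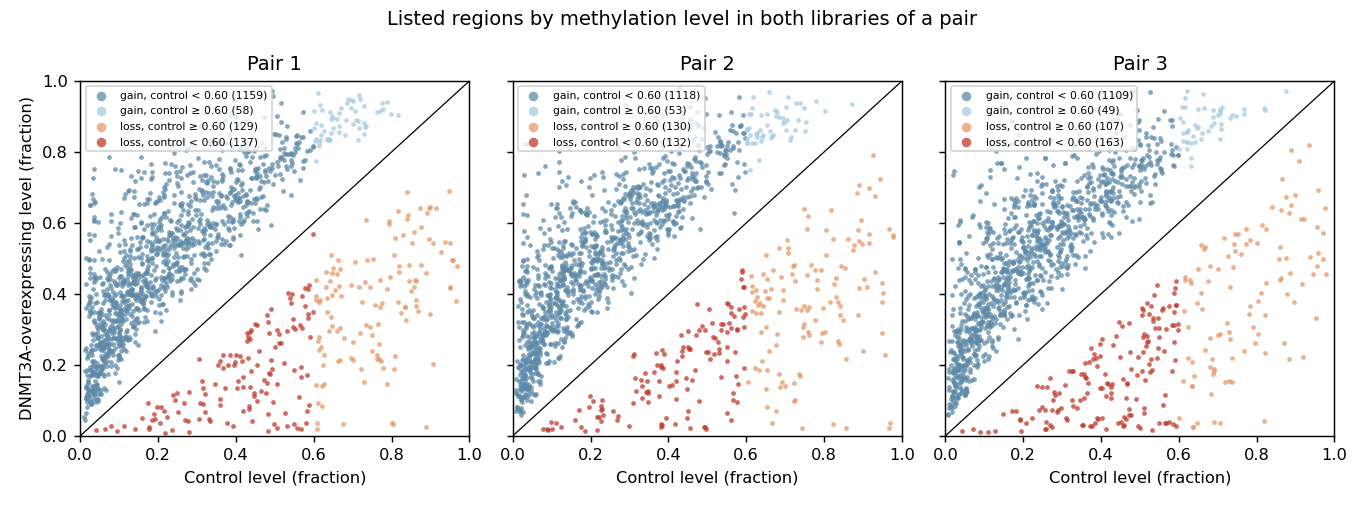
Each point is a listed region, with its methylation level (fraction) in the control library on the x axis and in the DNMT3A-overexpressing library of the same pair on the y axis, 1 panel per pair, and the line marks equal levels. The regions described here are the dark red points under the line and left of 0.60, numbering 137, 132 and 163.

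Most regions lost over 50% of their control level, and some ended nearly unmethylated. In 276 of 432 regions (63.9%) less than 50% of the control level remained, and 92 (21.3%) ended under 0.05. The share ending under 0.05 was 22.6%, 17.4% and 23.3% in pairs 1, 2 and 3. By control level, 38 regions started under 0.20, 137 between 0.20 and 0.40, and 257 between 0.40 and 0.60. The lowest class went from a median of 0.153 to 0.0259 and had 29 of 38 regions end under 0.05. The middle class went from 0.325 to 0.102, and the highest from 0.511 to 0.235.

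The boundary at 0.60 fell within a continuous run of losses, with 77 losses from control levels of 0.55 to under 0.60 and 67 from 0.60 to under 0.65. Just inside it were regions in GRB10, an imprinted adaptor gene of insulin signalling (0.598 in the control, 0.568 overexpressing), in SAMD5 (0.598 and 0.316), and nearest to RPGR (0.597 and 0.348). Just outside were regions in CNTLN (0.6004 and 0.0489), TAFA5 (0.604 and 0.152) and LINGO2 (0.606 and 0.384).

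The rule on levels did not use the CpG density and position of the regions. Whether the authors' region caller used the number of sites is not given, and no listed region had fewer than 4. Losses from under 0.60 also had a smaller median difference, -0.224 against -0.389 for losses from 0.60 or more, and its bearing on density was not tested. In each pair the losses from under 0.60 lay apart in density and position from losses from 0.60 or more and from gains from under 0.60. Their median density was 16.3, 15.6 and 14.3 CpG sites per 100 bp in pairs 1, 2 and 3. Losses from 0.60 or more had 9.80, 9.34 and 9.43, and gains from under 0.60 had 10.53, 10.61 and 10.77. The mean over pairs was 15.4 ± 1.03 (SD, n = 3 pairs) against 9.53 ± 0.244 and 10.6 ± 0.124, and no pair of either reference set reached the lowest value of these losses. The regions were not longer: medians were 88, 92 and 96 bp, against 90, 95 and 100 bp for losses from 0.60 or more and 103, 105 and 102 bp for gains. They held a median of 14, 15 and 15 CpG sites, against 9 in each pair for the other losses and 11, 12 and 12 for gains. The smallest set, gains from 0.60 or more, was closer: its median density was 13.3, 12.8 and 15.2 CpG sites per 100 bp, above that of the losses from under 0.60 in pair 3, and its median number of sites was 15, 13 and 14. Control levels were not matched between the sets. Over all lists their median was 0.437 for the losses from under 0.60 and 0.183 for the gains from under 0.60.

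Gene starts were also more frequent among them in each pair. An annotated start lay within 1 kb of 36.4%, 39.2% and 39.4% of the regions in pairs 1, 2 and 3, compared with 22.6%, 21.6% and 21.6% of losses from 0.60 or more and 16.3%, 17.0% and 18.1% of gains from under 0.60. The difference averaged 16.4 percentage points ± 2.26 (SD, n = 3 pairs) against the other losses and 21.2 ± 1.07 against the gains. The table of starts held a start for 71.1% of the protein-coding and long noncoding RNA genes used, so these shares are lower limits, and 20 of the regions (18 on chromosome 8 and 2 on unplaced sequences) could not be classed. The RefSeq gene table, which has both ends of a gene but no strand, also gave these regions the highest share of the 3 sets in each pair. A gene end was found within 1 kb of 39.4%, 46.2% and 41.7% of the regions, against 24.0%, 25.4% and 22.4% of the other losses and 21.4%, 21.4% and 23.9% of gains. In gene bodies, more than 1 kb away from any end, lay 40.1%, 35.6% and 30.1% of the regions, against 57.5%, 59.0% and 57.8% of gains, and 19.7%, 18.2% and 27.6% were intergenic.

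Each of these differences in density, CpG number, length, start share, gene-end share and gene-body share had the same sign in 3 of 3 pairs against both reference sets. With 3 pairs the exact two-sided sign-flip test cannot give less than p = 0.25, which each of them gave (adjusted p = 0.281 over 18 comparisons by Benjamini-Hochberg), so none passed a threshold of 0.05. The intergenic share was lower than in the other losses in 3 of 3 pairs (exact sign-flip p = 0.25) and differed in sign between pairs against gains (exact sign-flip p = 1). When only regions with an absolute difference of at least 0.25 were compared, the density difference shrank to 2.86 CpG sites per 100 bp against the other losses and 2.16 against gains, and the start-share difference to 8.48 and 12.5 points. The difference in CpG number from gains, 3 sites, was 0 under that limit (exact sign-flip p = 1), so it was not retained. With at least 10 CpG sites per region the density difference from the other losses was 2.80 and the start-share difference 9.44 points. Under that limit the differences from the other losses no longer had 1 sign in every pair for CpG number, 1.17 instead of 5.67 sites, and for the gene-body share, -5.37 instead of -10.0 points (exact sign-flip p = 0.5 for both).

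**Figure D2:**
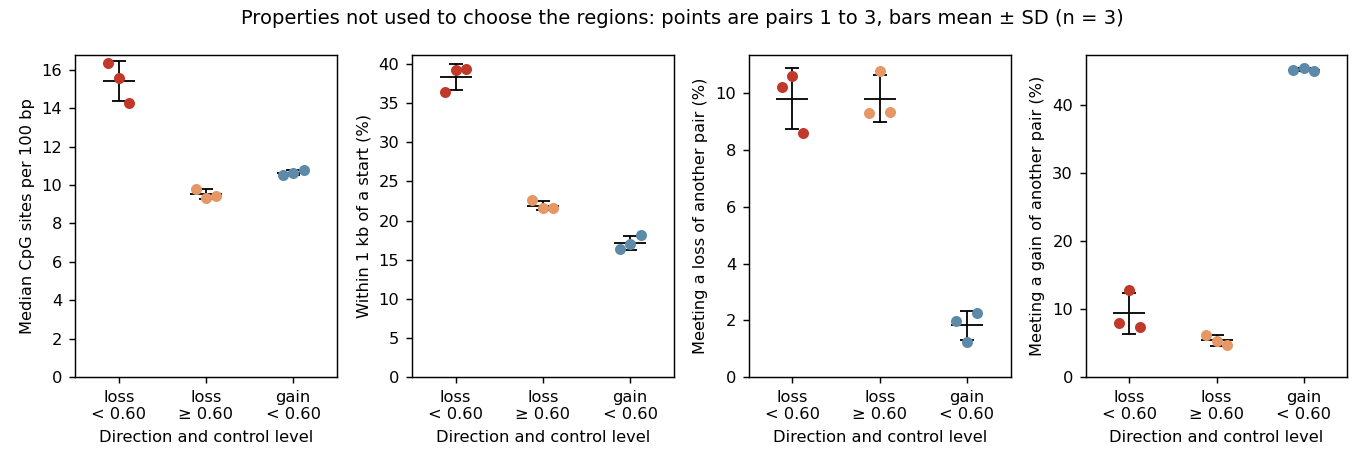
Panels show, from left to right, the median number of CpG sites per 100 bp, the percent of regions within 1 kb of an annotated start, and the percent meeting a loss or a gain listed in another pair, for losses from under 0.60, losses from 0.60 or more, and gains from under 0.60. Points are the 3 pairs and bars the mean ± SD (n = 3), and in the first 2 panels all 3 points of the losses from under 0.60 lie above all points of the other sets plotted.

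Density and position moved together. In 3 classes of density, set after the data were seen, the share with a start within 1 kb was 16.3% ± 5.94 (SD, n = 3 pairs) of the losses from under 0.60 with fewer than 10 sites per 100 bp, 35.3% ± 2.71 at 10 to under 20, and 57.7% ± 4.20 at 20 or more. Gains from under 0.60 gave 9.44% ± 0.408, 19.1% ± 0.816 and 40.3% ± 2.81 in the same classes, so the share was lower than among these losses in each class. Losses from 0.60 or more gave 7.94% ± 1.63 and 26.8% ± 8.61 in the lower classes and 57.6% ± 21.5 in the densest. In the densest class the mean differed from that of the losses from under 0.60 by less than the spread between pairs. There the other losses had the higher share in pairs 1 (77.8% against 55.8%) and 2. Their share was the lower one in pair 3 (35% against 62.5%). In the middle class it was lower in pairs 1 and 2 and higher in pair 3 (36.7% against 32.4%). Only in the lowest class was it lower in each pair. Within density classes, the excess over the other losses thus did not keep 1 sign in every pair. The densest class held 31.9% of the regions described here, 16.1% of the other losses and 10.8% of gains.

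**Figure D3:**
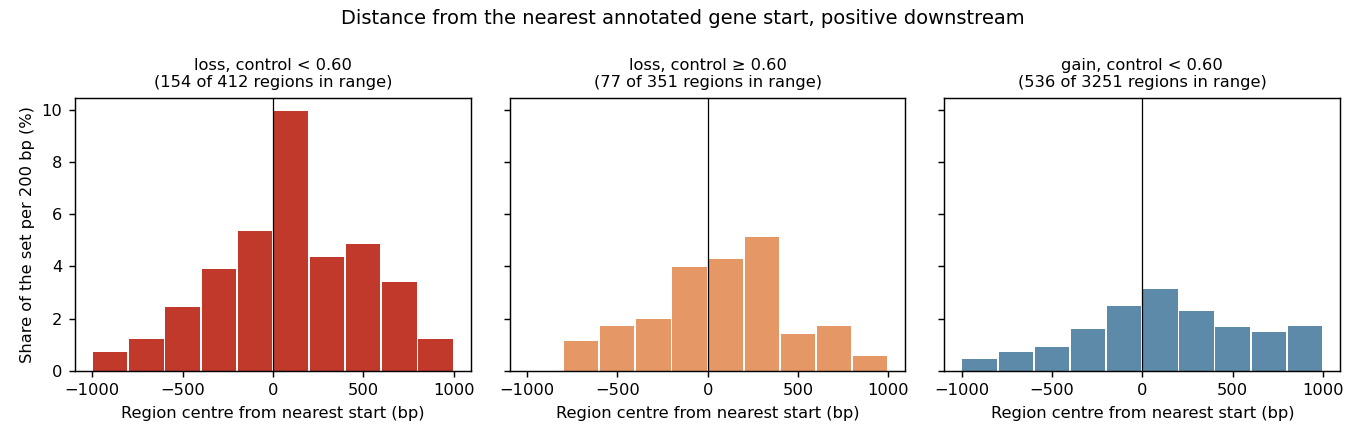
Histograms give the share of each set (%) whose centre lies in each 200 bp bin of distance from the nearest annotated start, from 1000 bp upstream (negative) to 1000 bp downstream (positive). The bars of the losses from under 0.60 are highest just downstream of the start, and 154 of 412 regions have their centre in range, against 77 of 351 and 536 of 3251.

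At the starts themselves, the regions sat on both sides. Of the 158 regions within 1 kb of a start, 101 (63.9%) had their centre downstream and 57 upstream, with a median of 124 bp downstream, and 71 (44.9%) were centred within 250 bp. Gains from under 0.60 had 63.0% downstream and a median of 124.5 bp. Windows of 300 bases around a start that these regions covered by at least 50 bases numbered 42. Their median G and C content was 71.0%, compared with 58.7% over all 34796 distinct windows of the table, and their median ratio of observed to expected CpG was 0.851, compared with 0.578. Windows covered by gains from under 0.60 had 69.3% and 0.791, and those covered by losses from 0.60 or more had 76.0% and 0.868.

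Short motifs were counted on both strands of the same windows. CCGG, the MspI site, was in 100% of the 42 windows and in 63.1% of all windows, and it is where the assay cuts. GGGCGG, the GC box recognised by SP-family factors, was in 90.5% of the 42 windows, 77.8% of windows of the other losses, 79.3% of those of gains and 44.9% of all. GCATGC, the core of the NRF1 motif, was in 11.9%, 7.41%, 3.604% and 7.17%, CACGTG, an E-box, in 9.52%, 7.41%, 9.91% and 7.205%, and CCAAT in 19.05%, 22.2%, 22.5% and 34.6%. No motif searched contains another. These are matches of letters in a window, with no measurement of a factor.

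Whether a region came back in another pair was not used to choose it, and most did not. Of the 432 regions, 350 (81.0%) met no region of another list, 42 (9.72%) met a loss and 40 (9.26%) met a gain. The share meeting no region was 85.2% among losses from 0.60 or more and 59.6% over all listed regions. Over all listed regions 3.22% met a loss of another pair and 37.4% met a gain. In pairs 1, 2 and 3, the share meeting a loss was 10.2%, 10.6% and 8.59%, the share among losses from 0.60 or more was 9.30%, 10.8% and 9.35%, and the 2 sets of losses did not differ in a common direction (mean difference -0.00112 points ± 0.848, SD, n = 3 pairs; exact sign-flip p = 1). Among gains from under 0.60, 1.98%, 1.25% and 2.25% met a loss. The share meeting a gain was 8.03%, 12.9% and 7.36%, above the 6.20%, 5.38% and 4.67% of the other losses in 3 of 3 pairs and below the 45.1%, 45.3% and 44.9% of gains (exact sign-flip p = 0.25 for each, the smallest possible). The excess over the other losses, 4.004 points, did not keep 1 sign in every pair with an absolute difference of at least 0.25 (0.335 points, exact sign-flip p = 0.75) or with at least 10 CpG sites (1.09 points, p = 0.5), and it was 1.78 points without pair 3 and 2.24 without pair 1 (p = 1 for both). The list of losses is much shorter than that of gains, so a share meeting a loss and a share meeting a gain are not on the same footing. A pair that did not list a region gives no level for it.

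Recurrence was also counted by starting level. None of the 38 regions with a control level under 0.20 met a loss of another pair, and 3 met a gain. Between 0.20 and 0.40, 10 of 137 (7.30%) met a loss, and between 0.40 and 0.60 the count was 32 of 257 (12.5%).

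The 62 distinct regions listed in more than 1 pair fell into 23 that were lower in every pair that listed them and 39 that were lower in 1 and higher in another. Of the 23, 1 was listed in 3 pairs and 22 in 2. A gene end lay within 1 kb of 15 of them and an annotated start within 1 kb of 17, 5 had identical boundaries in their pairs, and in 18 every listed level met the rule. Their median was 0.541 in the controls and 0.290 in the overexpressing libraries. Between the pairs that listed the same region, control levels differed by a median of 0.0683 and overexpressing levels by 0.0885.

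The region lower in all 3 pairs lay in GRIN2D, which encodes an NMDA receptor subunit, inside the gene body at chr19:48398668-48398870. It stood at 0.571 in control library 1 and 0.395 in overexpressing library 1, at 0.575 and 0.298 in pair 2, and at 0.582 and 0.312 in pair 3. The controls lay within a narrow range and pair 1 kept the highest overexpressing level. A separate GRIN2D region, at chr19:48443777-48443864, was listed in pair 3 alone (0.593 and 0.435).

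Several regions lower in 2 pairs lay at the starts of genes. The region with most CpG sites covered the shared start of SPART, the gene of spartin, and its antisense transcript SPART-AS1, at chr13:36346251-36346537. It held 103 sites in pair 1, with a control level of 0.486 and an overexpressing level of 0.290, and 85 sites in pair 2, with 0.501 and 0.236. At OLFM2, an olfactomedin gene, calls that overlapped at 1 end, spanning chr19:9913452-9913836, stood at 0.402 and 0.136 in pair 1 and at 0.377 and 0.111 in pair 2. The start of SPTBN4, which encodes a beta spectrin of axons, was at 0.346 and 0.125 in pair 2 and 0.349 and 0.174 in pair 3. In each of these genes both overexpressing levels lay below both controls.

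Starts shared by neighbouring genes were found among them too. BHMT2 and DMGDH encode enzymes of one-carbon metabolism, and the region within 1 kb of both their starts, at chr5:79069803-79069885, had the same boundaries in pairs 2 and 3. It stood at 0.341 and 0.125 in pair 2 and at 0.248 and 0.137 in pair 3. SLC12A2 encodes the sodium, potassium and chloride cotransporter NKCC1, and its divergent transcript SLC12A2-DT starts beside it. The region there, whose bases common to both calls are in capitals in the SLC12A2-DT sequence above, stood at 0.542 and 0.373 in pair 1 and at 0.438 and 0.281 in pair 3. The region near MBD3L1, a gene related to the methyl-CpG-binding protein MBD3, and ZNF558 was at 0.515 and 0.262 in pair 1 and at 0.556 and 0.319 in pair 2.

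Zinc finger genes, whose products bind DNA and in many cases repress transcription, gave further recurrent starts. ZNF844 was at 0.630 and 0.418 in pair 1 and 0.517 and 0.231 in pair 2, so its pair 1 level began above 0.60. ZNF879 was at 0.366 and 0.229 in pair 1 and 0.331 and 0.140 in pair 2. On chromosome 19 the gene LOC124904792 was at 0.756 and 0.355 in pair 2 and 0.425 and 0.106 in pair 3. Its call in pair 3 rested on 5 CpG sites against 29 in pair 2.

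Other recurrent losses lay in or near genes of varied function. In TERT, the telomerase reverse transcriptase gene, the region was inside the gene body at chr5:1277527-1277668, away from the start, and stood at 0.564 and 0.311 in pair 1 and 0.532 and 0.331 in pair 3. A separate TERT region, at chr5:1290589-1290673, was listed in pair 2 alone (0.530 and 0.235 over 7 sites). GNAS, a complex imprinted locus that encodes a G protein alpha subunit, was at 0.619 and 0.2497 in pair 1 and 0.586 and 0.442 in pair 2, and those 2 calls overlapped over part of their length. NKX6-1, a homeobox gene of the endocrine pancreas, was at 0.584 and 0.331 in pair 1 and 0.577 and 0.300 in pair 2. COLEC11, a soluble lectin of complement, was at 0.585 and 0.344 in pair 1 and 0.497 and 0.238 in pair 2.

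MAMLD1 was at 0.520 and 0.275 in pair 2 and 0.589 and 0.214 in pair 3. CCDC71L was at 0.433 and 0.0835 in pair 1 and 0.597 and 0.298 in pair 3, the widest gap between controls after LOC124904792 and the region nearest to PREX2. INTU, a gene of planar cell polarity and cilia, was at 0.454 and 0.200 in pair 1 and 0.539 and 0.305 in pair 3. JUN-DT, the divergent transcript of the JUN proto-oncogene, was at 0.320 and 0.0678 in pair 1 and 0.326 and 0.101 in pair 3, with the same boundaries in both. That region lay 31372 bp from JUN itself, and the annotated start within 1 kb was that of LOC101926907. FBN2, which encodes the microfibril protein fibrillin-2, was at 0.613 and 0.377 in pair 1 and 0.544 and 0.424 in pair 3. FSIP2, a gene of the sperm tail, was at 0.587 and 0.426 in pair 1 and 0.511 and 0.288 in pair 3. The others were LINC00345 (0.631 and 0.462 in pair 1, 0.505 and 0.357 in pair 2) and RGS9BP, which encodes an anchor of the RGS9 protein (0.589 and 0.467 in pair 2, 0.537 and 0.397 in pair 3). The intergenic region nearest to PREX2 had the widest mean difference of the 23, with 0.568 and 0.167 in pair 1 and 0.377 and 0.0265 in pair 3, over 7 and 6 CpG sites.

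**Figure D4:**
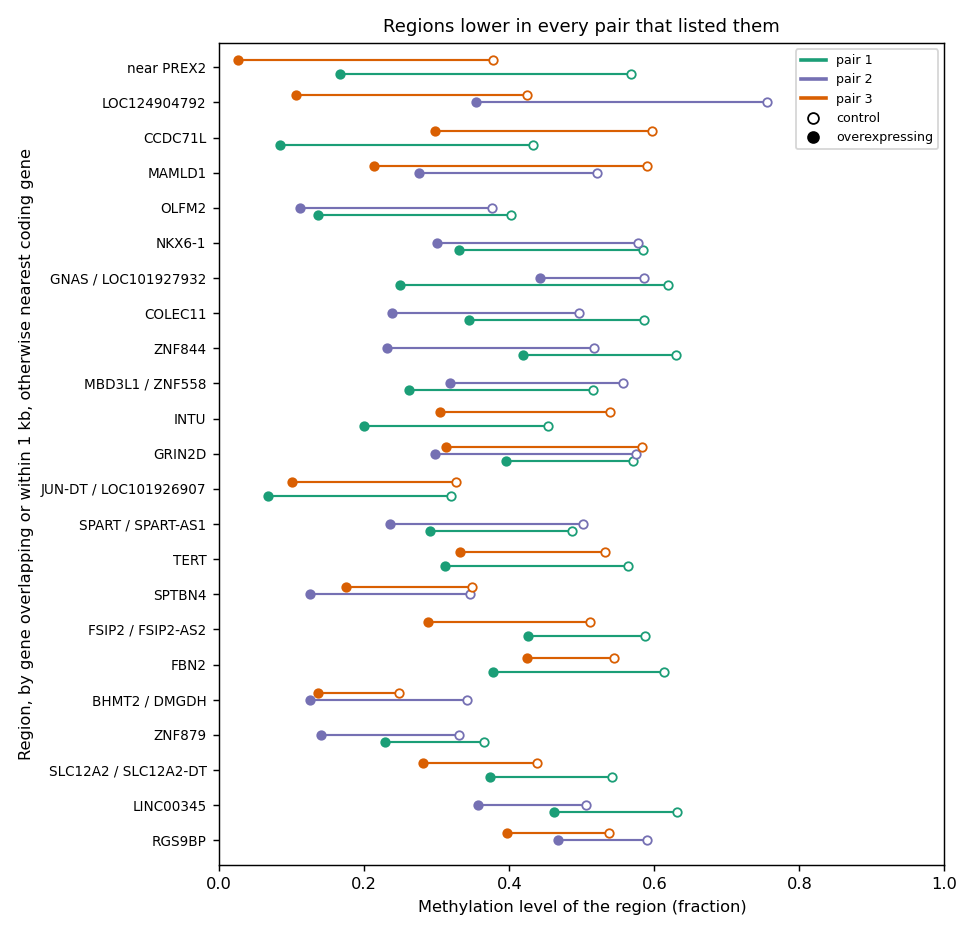
The 23 regions lower in every pair that listed them, 1 row per region, with the methylation level (fraction) of the control (open circle) and the overexpressing library (filled circle) joined by a line for each pair. GRIN2D has 3 lines and the others 2, and in each row every filled circle lies left of every open one.

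Of the 39 regions with opposite directions, 13 (33.3%) had a gene end within 1 kb and 14 an annotated start. The gene-end share among the 23 was 65.2%, and the difference between the 2 groups was not tested. In the pairs where they were lower their median control level was 0.445 and their median overexpressing level 0.211, and in the pairs where they were higher it was 0.236 and 0.439. The control of the lower pair was above the control of the higher pair in 39 of 39 regions, by a median of 0.196, and its overexpressing level was below that of the higher pair in 38 of 39, by a median of 0.204. The calls in opposite directions tend to fix this order. At each region the gap between controls plus the gap between overexpressing libraries equals the loss plus the gain. Order and size of these gaps are thus a description, and they do not measure the spread between libraries in general.

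The widest opposite differences included an intergenic region nearest to MCOLN2, a cation channel gene, at 0.0747 and 0.540 in pair 1 and 0.393 and 0.0503 in pair 2. NFIB, a nuclear factor I transcription factor gene, had 2 merged regions of opposite direction at its start. At chr9:14313625-14313800 pair 1 went from 0.0469 to 0.521, while pair 3 went from 0.353 to 0.0315 in an overlapping call. At chr9:14314279-14314461 pair 1 went from 0.547 to 0.307, while pair 3 went from 0.375 to 0.571. Within pair 1, neighbouring stretches of NFIB thus differed in direction, and the same held in pair 3 with the directions exchanged.

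The HOXA3 and HOXA5 region, in the cluster of homeobox genes that pattern the body axis, was at 0.570 and 0.304 in pair 1, 0.0650 and 0.453 in pair 2, and 0.269 and 0.673 in pair 3. KCTD12, a subunit of GABA-B receptors, was at 0.461 and 0.703 in pair 1, 0.590 and 0.461 in pair 2, and 0.326 and 0.532 in pair 3. Each was lower in 1 pair and higher in the other 2. The third region listed in all pairs, nearest to LOC124904970, followed the same count, with pair 2 lower (0.539 and 0.316).

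At GATA2, a transcription factor gene of blood and endothelium, both directions were seen close to the floor. The region within 1 kb of its start was at 0.177 and 0.0239 in pair 1 over 59 CpG sites, and at 0.0219 and 0.192 in pair 3 over 61. NKX3-2, a homeobox gene of cartilage and gut whose sequence is shown above, was at 0.436 and 0.273 in pair 1 and 0.243 and 0.409 in pair 3. CPLX1, a synaptic complexin gene, had identical boundaries in both pairs, with 0.536 and 0.299 in pair 2 and 0.379 and 0.6996 in pair 3. MEGF6 was at 0.561 and 0.238 in pair 3 and 0.353 and 0.694 in pair 2, and DGKZ, a diacylglycerol kinase gene, at 0.332 and 0.107 in pair 2 and 0.0347 and 0.349 in pair 1. LINC01410 (lower in pair 3), PRDM11 (lower in pair 2) and the regions nearest to TCERG1L and GLIS2 (both lower in pair 2) were the rest of the 10 widest.

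**Figure D5:**
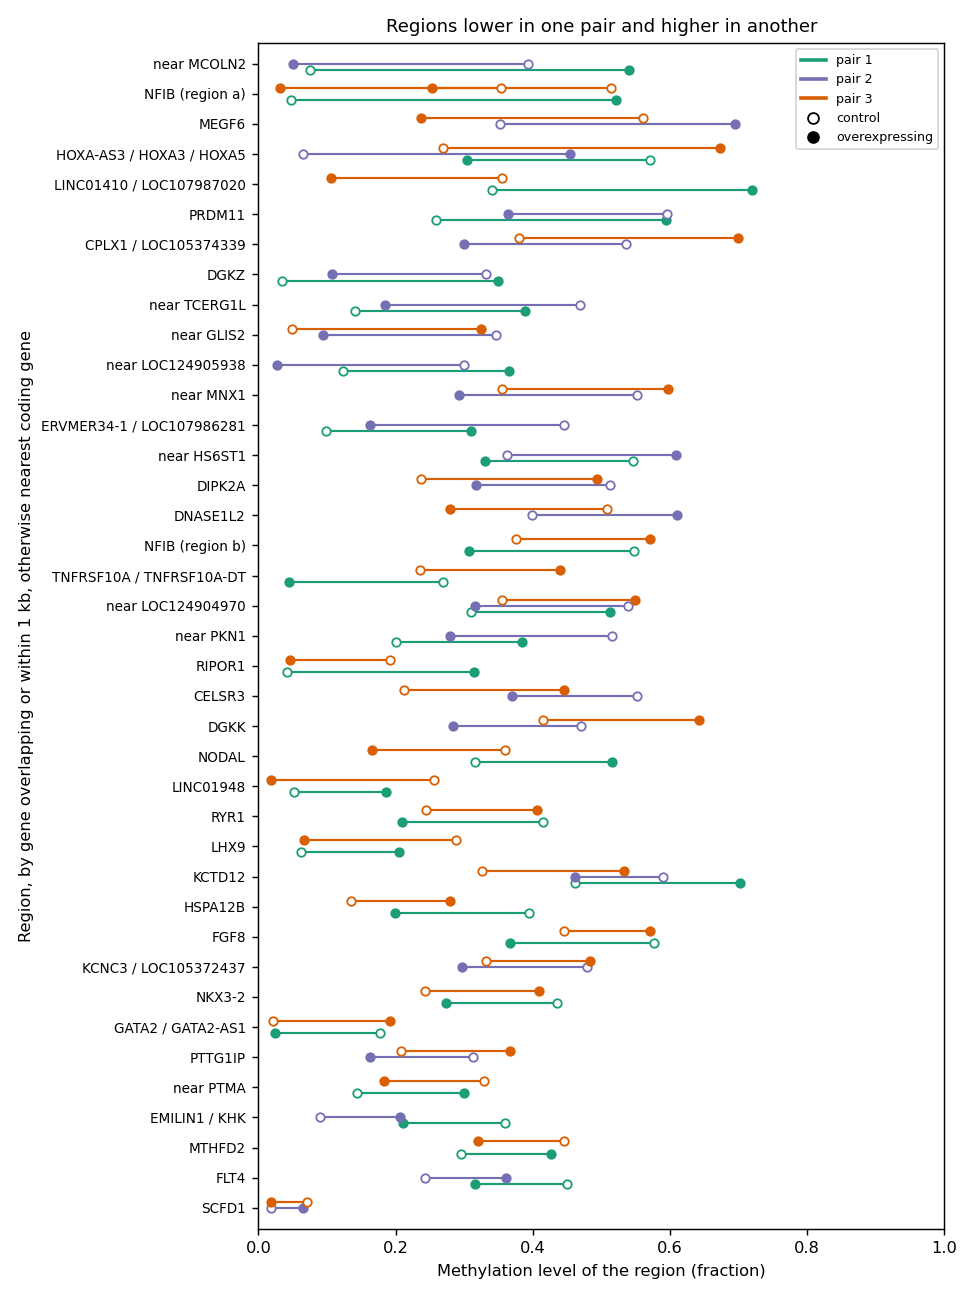
The 39 regions lower in 1 pair and higher in another, 1 row per region, with the methylation level (fraction) of the control (open circle) and the overexpressing library (filled circle) joined by a line for each listed call. Open circles to the right of their filled circle mark the losses, and the upper NFIB row holds 2 calls of pair 3.

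Among regions seen in 1 pair, the largest differences rested on few CpG sites. In pair 1 they were an intergenic region nearest to ITGB8, an integrin gene (0.568 in the control, 0.0182 overexpressing), one in LINC02994 (0.581 and 0.0353), and one by WNT10A, a WNT ligand gene (0.557 and 0.0217). In pair 2 they were in DIAPH2, a formin gene (0.560 and 0.0450), nearest to ARL3 (0.551 and 0.0655) and in MEGF6 (0.577 and 0.0953). In pair 3 they were in ASIC2, an acid-sensing ion channel gene (0.594 and 0.0267), in RPS6KA2, a ribosomal S6 kinase gene (0.586 and 0.0335), and nearest to RTN2 (0.574 and 0.0381). These 9 regions held 4 to 6 sites each, and no other pair listed them.

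The authors' area score, whose definition is not stated in the files, ranked other regions first, all with at least 43 sites. Besides SPART, OLFM2, GATA2 and GRIN2D, the 3 strongest of each pair included LOC102723842 in pair 2 (0.478 and 0.0972 over 43 sites), the shared start of BEND6 and DST in pair 3 (0.513 and 0.158 over 54 sites) and ANKRD65 in pair 3 (0.590 and 0.416 over 84 sites). DST encodes dystonin, a cytoskeletal linker. SPART was among the 3 strongest in both pairs that listed it, as GRIN2D was in pairs 2 and 3.

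The lowest control levels lay partly at gene starts. They were 0.0414 in pair 1 nearest to LOC124904970, 0.0635 at the shared start of CEP19 and PIGX, and 0.0781 at SLC8A1, the sodium and calcium exchanger gene shown above, with overexpressing levels of 0.0155, 0.0200 and 0.0267. In pair 2 they were 0.0781 at LOC105373928, 0.0872 at DPF2, a BAF complex subunit gene, and 0.0899 at TBC1D15, ending at 0.0190, 0.0197 and 0.0171. In pair 3 they were 0.0437 at EIF2AK1, the heme-regulated eIF2 kinase gene, 0.0703 at SCFD1, a gene of vesicle transport, and 0.0890 at TBATA, ending at 0.0123, 0.0178 and 0.0102. SCFD1 was higher in pair 2 (0.0185 and 0.0657). Differences here were between 0.0259 and 0.0788 in size, and control levels this low leave little room for a fall. At SCFD1 the control stood at 0.0703 in pair 3 and at 0.0185 in pair 2.

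Gene groups were counted from 15 lists, by whether a region lay within 1 kb of a gene. Over all genes, 379 of 2354 with any listed region (16.1%) had a loss from under 0.60. Zinc finger genes had 13 of 39 (33.3%). Imprinted genes had 5 of 13 (38.5%), ion channel and neuronal genes 12 of 47 (25.5%), matrix and adhesion genes 8 of 35 (22.9%) and HOX genes 2 of 6 (33.3%). Of the 379 genes, 272 had neither a gain nor a loss from 0.60 or more. The same held for 11 of the 13 zinc finger genes and 3 of the 5 imprinted genes. It held for 6 of the 12 ion channel and neuronal genes, 3 of the 8 matrix genes and 0 of the 2 HOX genes. The lists of clustered protocadherins (0 of 20), Polycomb and chromatin regulators (0 of 8), germline genes (0 of 6), lipid and cholesterol metabolism (0 of 5), DNA methylation machinery (0 of 3) and markers of other cell types (0 of 3) had none. The remaining counts were 6 of 45 for other developmental transcription factors (13.3%), 1 of 13 for the WNT pathway (7.69%), 1 of 7 for hepatocyte function (14.3%) and 1 of 8 for genes methylated in cancers (12.5%). These counts carry no test, and neighbouring genes can share a region.

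The zinc finger genes with the largest differences were ZNF429 in pair 3 (0.477 and 0.0592), ZNF207 in pair 1 (0.5502 and 0.185) and ZNF536 in pair 2 (0.508 and 0.216). ZNF48, whose start is shown above, was at 0.315 and 0.0886 in pair 1. Of the 13 genes, 7 lie on chromosome 19, which carries large clusters of zinc finger genes. That chromosome held 47 of the 432 regions (10.9%), compared with 7.69% of all listed regions, and its share was above that of all listed regions in each pair. Chromosome 16 held 3.94% of the regions and 7.83% of all listed.

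Imprinted genes, which carry methylation on the copy from 1 parent over part of their length, were represented by 5 genes. Whether the listed regions lay in those parts was not examined. PLAGL1, a zinc finger growth regulator whose upstream sequence is shown above, was at 0.388 and 0.219 in pair 3 over 58 sites at the start it shares with the noncoding HYMAI. IGF2R, the mannose 6-phosphate and IGF2 receptor, was at 0.455 and 0.0228 in pair 2 over 4 sites inside the gene body. L3MBTL1 was at 0.370 and 0.208 in pair 3. GNAS and GRB10 are given above, and no pair besides the 2 of GNAS repeated a loss at any of the 5 regions.

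Ion channel and neuronal genes included CACNA1C, a calcium channel subunit gene (0.465 and 0.106 in pair 3), GRIN2D, and KCNN1, a calcium-activated potassium channel gene (0.417 and 0.147 in pair 3). Matrix genes were led by ADAMTS2, a procollagen peptidase gene (0.566 and 0.0369 in pair 3), ADAM12 (0.491 and 0.171) and COL5A1, a collagen gene (0.477 and 0.187), with the last 2 in pair 3 as well. COLEC11 and EMILIN1 are on that list by their symbols' prefixes. Developmental transcription factors were represented by NFIB, LHX9 (0.287 and 0.0664 in pair 3), ONECUT1, a liver-enriched factor (0.449 and 0.251 in pair 2), FOXF2, GATA2 and PAX2.

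Single genes of interest for a liver tumour line were few. MGMT, the DNA repair methyltransferase gene often methylated in tumours, was lower in pairs 1 and 3 at separate stretches on either side of its start. The stretch upstream, at chr10:129466722-129466892, was at 0.490 and 0.212 in pair 1, and the downstream one, at chr10:129467333-129467446, was at 0.507 and 0.359 in pair 3. CYP2R1, a vitamin D 25-hydroxylase gene, was at 0.418 and 0.166 in pair 1 at its start. Neither gene had a region that overlapped between pairs.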

How the data were processed

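RRBS libraries of HepG2 cells (3 control, 3 DNMT3A-overexpressing) were analysed from 3 deposited lists and a mapping summary. Per the file headers, each list gives for a region the mean methylation level in both libraries as a fraction, the count of CpG sites, and an area score whose definition is not stated. The authors' mapping summary gives percent values and read counts per library. The genome is hg38 (per the submitters' processing notes). For the aligner, the region caller and its thresholds, the entry is: not given in the sources used here.

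The regions and gene lists were chosen with earlier results of these data known. Groups and numbers came from the labels, and the authors' lists pair the same numbers, so every comparison was made within pairs. Overlap meant at least 1 bp. A gene end was within 1 kb of either end of a protein-coding or long noncoding RNA gene of RefSeq GRCh38.p14 (38386 genes). Exons and introns were not analysed here. Medians and shares were compared over the 3 pairs with exact two-sided sign-flip tests, Benjamini-Hochberg adjusted over 18 comparisons (Python 3.11.15, numpy 2.4.6, pandas 2.3.3), tested on simulated data. Regions named are those lower in 2 or more pairs, the 3 per pair with the largest difference, area score or lowest control level, the 10 widest opposite regions, and up to 3 per gene list. Others were named after their values were seen. No per-sample column was left unmapped.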

Additional observations from a re-analysis of the deposited data

How the results depend on the processing

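Of 186 values recomputed under 12 alternatives, 5 changed sign, 3 region counts moved, and the difference in CpG number from gains became 0 with an absolute difference of at least 0.25. Several others kept their sign but shrank or grew severalfold. The number of regions moved from 432 to 288 with a control level under 0.50 and to 180 with an absolute difference of at least 0.25, and leaving out 1 pair gave 269 to 300. The difference in the share meeting a loss of another pair, against losses from 0.60 or more, was -0.00112 points and had no stable direction. It was -6.04 with a limit of 0.50 and 2.96 with a limit of 0.70, where the reference losses also began at the moved limit. With at least 10 CpG sites it was -5.28, and with an absolute difference of at least 0.25 it was 1.42. When 1 pair was left out it ranged from -3.47 to 2.73 (0.547 without pair 3). The difference in intergenic share against gains, 2.33 points, ranged from -1.20 (without pair 3) to 4.11 when 1 pair was left out and was 8.76 with an absolute difference of at least 0.25. The difference in the share meeting a gain, against the other losses, ranged from 0.335 to 4.60 points over all alternatives. Without the replicate block, that is with the pairs ignored, the start-share difference stayed 16.4 points with an exact permutation p of 0.1, the smallest that 3 against 3 allow, so no call changed. Leaving out chromosome 19, an alternative chosen after seeing the data, left 385 regions and a start-share difference of 15.3 points. The cause of these shifts was not tested. Reads per region are not given, so levels resting on 4 to 6 sites cannot be weighed by depth.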
